A study of Mus musculus with 12 samples.

Results

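The levels of 10 genes were followed as markers of fibro-adipogenic progenitors, the mesenchymal cells of fat that can become adipocytes or matrix-making fibroblasts. The genes are Pdgfra, Pdgfrb, Dpp4, Pi16, Cd34, Ly6a, Thy1, Sfrp2, Mgp and Dcn. A gene was taken through its probe with exactly 1 gene symbol, and through the brightest such probe where there were several, which gave 9 of the 10 genes among 22180 genes measured in this way. Ly6a had no such probe and was not analysed here. All 9 passed the filter on dim genes, described below, which left 12710 genes for testing. The list was drawn up with earlier results of these data known, and it was chosen by the log2 levels in fat of Thy1 and Sfrp2, whose changes with genotype leaned apart in the 2 fat depots. The changes of Thy1 and Sfrp2 in fat are therefore given as values without a test.

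The arrays measured RNA in whole tissue from liver and from 2 depots of white fat, epididymal and inguinal. The first group in each tissue is Mgl2-DTR, male mice on the C57BL/6N background in which the gene for the lectin CD301b, Mgl2, drives the receptor for diphtheria toxin, which makes the CD301b-positive mononuclear phagocytes sensitive to it. The other group is wild-type, male C57BL/6N mice of matched age, in which the toxin has no such receptor to act on. Mice of both genotypes received diphtheria toxin, 500 ng per dose every 3 days into the abdomen, and tissues were taken on day 10. Each of the 6 groups of tissue and genotype had 2 arrays. The labels give no number for the age of the mice and do not say whether a replicate was a separate animal, so the spread behind each p-value is that of these samples and may be technical. In whole tissue, fewer cells of a type and less RNA per cell cannot be told apart.

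Fibro-adipogenic progenitors lie in the stroma of fat around vessels and in the connective tissue between lobules. Platelet-derived growth factors act on them through the receptors Pdgfra and Pdgfrb. Cells with Dpp4 and Pi16 are held to be an early, multipotent population of the fascia-like stroma, from which more committed preadipocytes arise, while Thy1, Cd34 and Ly6a are surface markers shared with other cell types. Sfrp2, Mgp and Dcn encode secreted proteins that act on Wnt signals, mineralization and collagen fibrils.

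Array medians lay between 5.19 and 5.28 on the log2 scale, and genes were tested where the mean of some tissue lay above 5.71, which is the median value of single-symbol probes. Below that level a probe may sit at background. Mgl2 stood at 4.25 and 4.19 in Mgl2-DTR epididymal fat, against 7.46 and 7.22 in wild-type epididymal fat, and at 4.12 and 4.72 in Mgl2-DTR inguinal fat, against 7.07 and 7.36 in wild-type inguinal fat. Its levels in fat therefore followed the labels. In liver Mgl2 lay at 4.59 and 4.03 in Mgl2-DTR and at 4.36 and 4.12 in wild-type mice, all under 5.71. Its liver levels therefore cannot show whether cells were depleted there. Some arrays held RNA of other tissue. In inguinal fat the mean of 7 skeletal muscle genes was 10.10 in Mgl2-DTR replicate 1 and 10.53 in wild-type replicate 2, against 6.70 in Mgl2-DTR replicate 2 and 6.77 in wild-type replicate 1. In epididymal fat 6 genes of the epididymal duct averaged 10.51 in Mgl2-DTR replicate 2, against 4.21 in Mgl2-DTR replicate 1 and 3.93 and 4.12 in the wild-type arrays.

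Sequences are shown for the 2 members whose levels set the depots and the genotypes apart most visibly in the data below, Pi16 between depots and Sfrp2 between genotypes of inguinal fat. RefSeq's promoter table (GRCm38.p6) held 5 of the 9 members. The lines give the 250 bases before the transcript start of that promoter table, 5′ to 3′ on the plus strand. Capitals mark where a searched motif matched. The windows are chr17:29318632-29318881 for Pi16 and chr3:83766071-83766320 for Sfrp2. The gene records of these members start earlier, at 29318796 for Pi16 and at 83765750 for Sfrp2. By those starts the Pi16 window lies partly, and the Sfrp2 window wholly, within the gene.
Pi16: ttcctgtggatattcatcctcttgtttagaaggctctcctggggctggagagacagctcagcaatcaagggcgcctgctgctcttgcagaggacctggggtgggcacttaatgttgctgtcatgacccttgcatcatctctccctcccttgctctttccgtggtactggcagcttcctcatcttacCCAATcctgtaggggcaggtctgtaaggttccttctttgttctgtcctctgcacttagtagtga
Sfrp2: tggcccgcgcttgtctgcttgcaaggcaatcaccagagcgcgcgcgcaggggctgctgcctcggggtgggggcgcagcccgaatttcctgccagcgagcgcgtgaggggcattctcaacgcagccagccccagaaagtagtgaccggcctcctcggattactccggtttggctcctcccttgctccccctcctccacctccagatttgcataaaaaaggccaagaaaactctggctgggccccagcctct
The motifs searched, on both strands, were the TATA box TATAAA, the CCAAT box CCAAT and the GC box GGGCGG. The Pi16 window held CCAAT, which 33.8% of all 32851 windows of this length in the table hold. The Sfrp2 window held none of the 3. TATAAA was in 12.4% and GGGCGG in 32.7% of windows. A match is a run of letters and says nothing about whether a factor binds there.

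The first question is whether these genes mark fat rather than liver. In wild-type mice, of the 7 members other than Thy1 and Sfrp2, 6 were lower in liver than in fat and 1 was higher, Dpp4, all with an adjusted p under 0.05 by limma. Thy1 and Sfrp2 were lower too and are given as values without a test, since their fat arrays are among those that chose the list. The 7 calls stand beside 57.1% of all tested genes called in this comparison, 34% lower and 23.1% higher, and the median change over all genes was -0.13. All 4 liver arrays lay below all 8 fat arrays for every member except Dpp4, for which they lay above. The share of all genes with such an order was not counted, so this is a description.

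Cd34, a sialomucin of progenitor and endothelial cells, differed most, with 5.74 and 5.89 in wild-type liver against 9.71 and 10.35 in wild-type epididymal and 10.51 and 10.63 in wild-type inguinal fat. It was 22.4-fold lower in liver (log2 change -4.49, SE 0.18; limma adjusted p = 3.41e-08), and its liver level lay close to 5.71, so the size is limited by the floor. Pdgfra, the receptor that most widely defines these progenitors, had 6.78 and 6.96 in wild-type liver, 9.47 and 9.66 in wild-type epididymal and 10.49 and 10.56 in wild-type inguinal fat, a change of -3.18 (SE 0.27; limma adjusted p = 7.86e-06). Pdgfrb, the related receptor that pericytes also carry, changed by -2.54 (SE 0.26). Thus both receptors were clearly above the filter level in liver while far below their level in fat.

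The secreted proteins had the same order. Mgp, which encodes an inhibitor of calcification made by vessels and cartilage as well as stroma, changed by -2.95 (SE 0.20), and Dcn, the collagen-binding proteoglycan decorin, by -2.01 (SE 0.21). Dcn stayed at 10.65 and 10.81 in wild-type liver, against 12.43 to 12.94 in wild-type fat, so it was well above the filter level in every tissue. Sfrp2, a secreted Frizzled-related protein that modulates Wnt signals, stood at 5.61 and 6.10 in wild-type liver (change -2.64, SE 0.20), with 1 of the 4 liver arrays under 5.71, and Pi16, a secreted peptidase inhibitor, at 5.98 and 6.19 (change -2.67, SE 0.22), with 2 of 4 under it, so both sizes are limited by the floor. Thy1, a surface glycoprotein of fibroblasts and T cells, lay under 5.71 in all 4 liver arrays, at 5.50 to 5.69, so its change of -2.06 (SE 0.15) is limited by the floor.

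Dpp4, a surface peptidase found in liver on the bile canaliculi of hepatocytes, ran the other way. It stood at 10.08 and 10.17 in wild-type liver, against 8.32 and 9.11 in wild-type epididymal and 8.91 and 9.13 in wild-type inguinal fat, a difference of 1.25 (SE 0.21; limma adjusted p = 0.000731), or 2.39-fold. In Mgl2-DTR liver it stood at 10.13 and 10.18. Of 6 hepatocyte markers, Tdo2, Serpina1a and Fabp1 lay under 5.71 in all 8 fat arrays and Apob in all of them except wild-type epididymal replicate 2, at 5.88. Alb lay at 6.28 to 9.88 in the fat arrays, against 13.55 to 13.68 in the liver arrays, and Cyp2e1 at 12.15 to 13.14, against 13.21 to 13.33 in liver, so that the list's mean of 5.81 to 7.37 in fat was carried by these 2 genes. Their part in the Dpp4 level of fat was not tested.

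**Figure D1:**
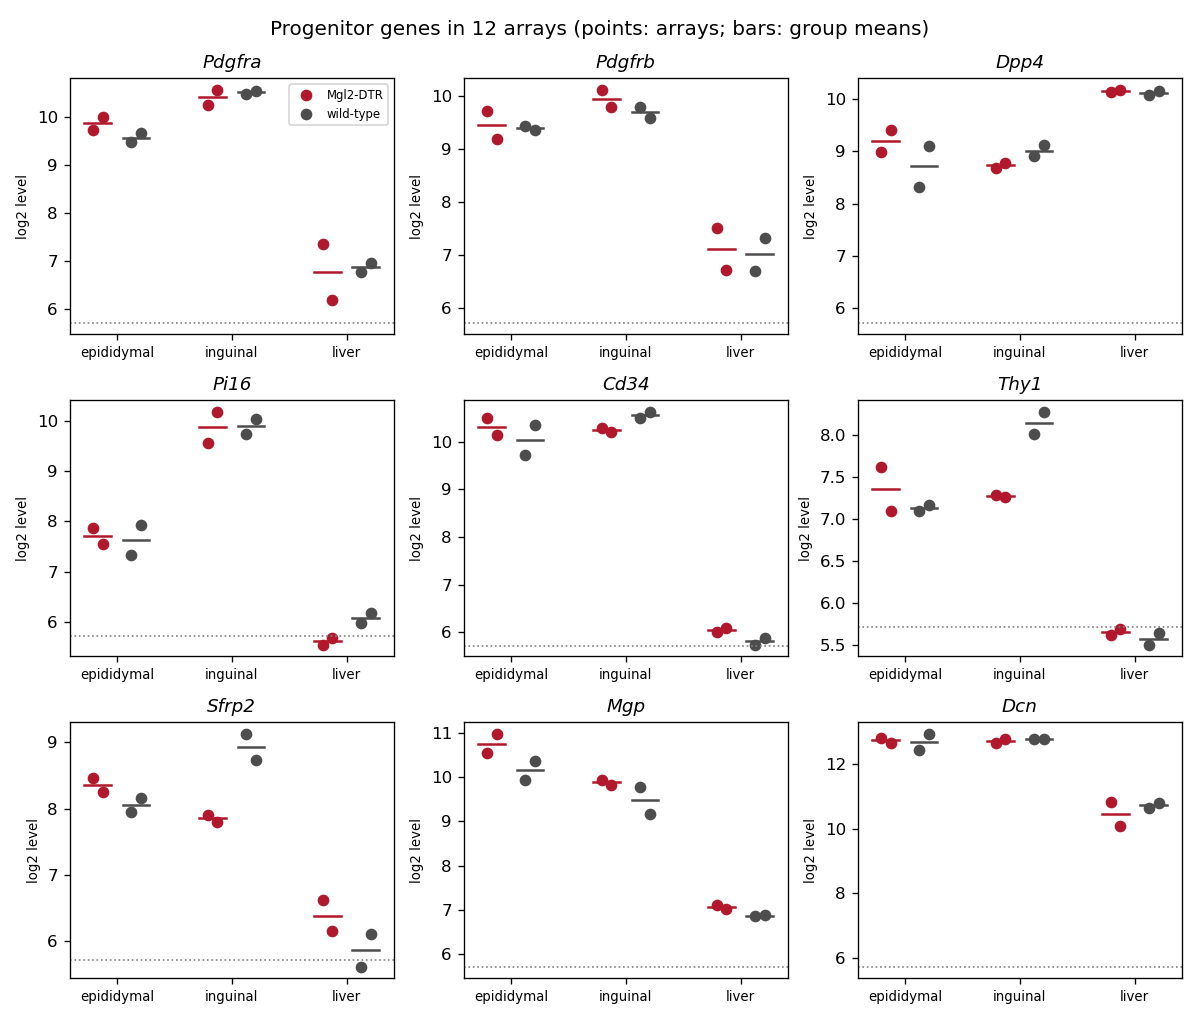
Log2 level of each progenitor gene in the 12 arrays, by tissue and genotype, with Mgl2-DTR in red and wild-type in grey, points for arrays, bars for means of 2 arrays and a dotted line at the filter level of 5.71. Dpp4 is highest in liver and the other 8 genes are lowest there, Pi16 is high in inguinal fat of both genotypes, and Thy1 and Sfrp2 are high in wild-type inguinal fat.

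The second question is how the depots differ. Pi16 was the member with the widest gap. It stood at 9.56 and 10.17 in Mgl2-DTR inguinal fat and at 7.87 and 7.55 in Mgl2-DTR epididymal fat. In wild-type mice it stood at 9.74 and 10.03 in inguinal and at 7.33 and 7.92 in epididymal fat. The depots did not overlap in either genotype. Pi16 was thus 4.46-fold higher in inguinal fat of Mgl2-DTR mice (2.16, SE 0.25; limma adjusted p = 0.00358) and 4.79-fold higher in inguinal fat of wild-type mice (2.26, SE 0.25; limma adjusted p = 0.00282), which leaves 2 estimates closer together than the SE of either. Thy1 and Sfrp2 aside, 7 members were tested between depots, and Pi16 was the 1 called in each genotype. Of all genes 1.96% were called in Mgl2-DTR mice (0.897% higher and 1.06% lower in inguinal fat) and 1.49% in wild-type mice (0.834% higher and 0.661% lower).

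The growth factor receptor Pdgfra leaned the same way without passing. It was higher in inguinal than in epididymal fat by 0.55 in Mgl2-DTR (SE 0.31; limma adjusted p = 0.394) and by 0.96 in wild-type mice (SE 0.31; limma adjusted p = 0.197), and the depots did not overlap in either genotype. Pdgfra passed in wild-type mice when either Mgl2-DTR liver array was left out, with a limma adjusted p of 0.0388 each time. In Pdgfrb the inguinal minus epididymal difference was 0.49 in Mgl2-DTR and 0.29 in wild-type mice (SE 0.30 for both), again without overlap and without passing.

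Mgp ran the opposite way, lower in inguinal than in epididymal fat. Its levels were 9.93 and 9.83 in Mgl2-DTR inguinal fat and 10.54 and 10.97 in Mgl2-DTR epididymal fat (difference -0.88, SE 0.23; limma adjusted p = 0.0999). In wild-type mice they were 9.78 and 9.17 in inguinal and 9.93 and 10.38 in epididymal fat (-0.68, SE 0.23; limma adjusted p = 0.211). Neither difference passed, although no inguinal array reached an epididymal array of its genotype. Dcn differed by -0.02 in Mgl2-DTR and 0.10 in wild-type mice (SE 0.24), with 95% intervals of -0.56 to 0.52 and -0.44 to 0.64.

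For Cd34 and Dpp4 the sign of the depot difference was not the same in both genotypes. Cd34 gave -0.08 in Mgl2-DTR and 0.54 in wild-type mice (SE 0.21 for both), and Dpp4 gave -0.46 and 0.30 in the same order (SE 0.24). None of these 4 values passed by limma. The wild-type value of Cd34 ranged from 0.22 to 0.85 when 1 array was left out, with 0.85 without epididymal wild-type replicate 2. Over the 9 members, those whose depots did not overlap numbered 6 in Mgl2-DTR and 7 in wild-type mice, against 52.8% and 46.7% of all tested genes. These counts hold Sfrp2 in both genotypes and Thy1 in wild-type mice, whose levels in fat chose the list, so they are a description. The others were Pdgfra, Pdgfrb, Pi16 and Mgp in both genotypes, Dpp4 in Mgl2-DTR and Cd34 in wild-type mice. Markers of mesothelium, which covers epididymal fat, also differed between depots, with 5 of 6 called lower in inguinal fat in each genotype by limma. The 6 averaged 8.06 and 8.22 in Mgl2-DTR epididymal and 7.47 and 8.38 in wild-type epididymal fat, against 5.26 to 5.63 in the 4 inguinal arrays, and 3 of them (Msln, Lrrn4 and Krt19) lay under 5.71 in all inguinal arrays. Their part in the depot differences of the members was not tested.

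**Figure D2:**
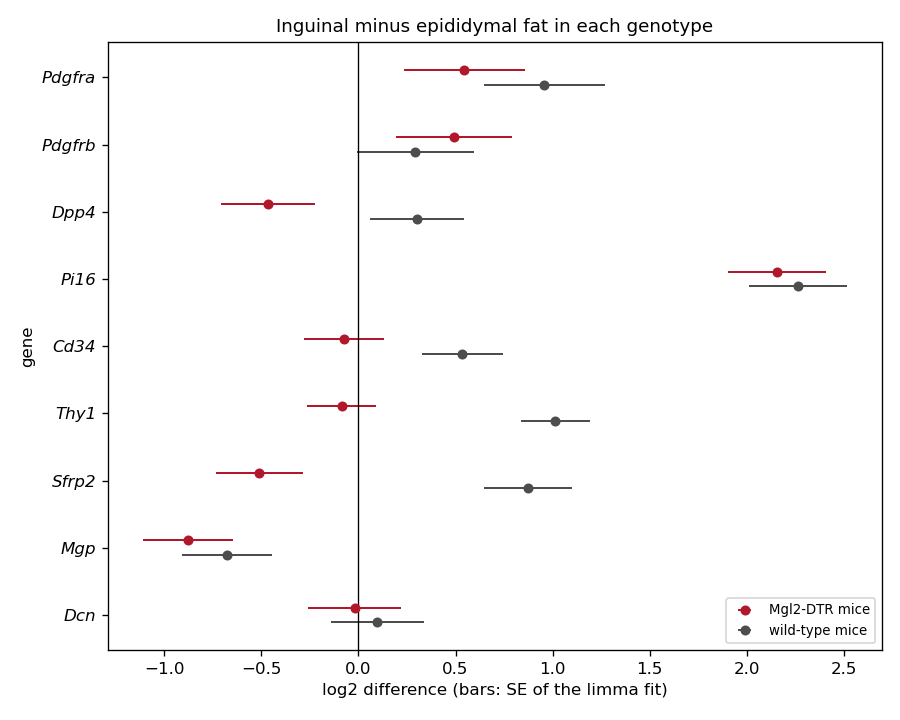
Inguinal minus epididymal log2 level of each progenitor gene in Mgl2-DTR mice (red, upper of each pair) and wild-type mice (grey), with bars for the SE of the limma fit over 12 arrays. Pi16 lies at 2.16 and 2.26, Mgp lies below 0 in both genotypes, and Thy1 and Sfrp2 lie above 0 in wild-type but not in Mgl2-DTR mice.

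In epididymal fat, depletion of CD301b-positive cells was set against wild-type for each gene. All 9 changes were above 0, from 0.06 for Dcn to 0.61 for Mgp, with a median of 0.29 against 0.005 over all genes, of which 51.0% were above 0. None of the 7 members tested passed by limma, 1 had an unadjusted p under 0.05, and 0.0315% of all genes were called. The genotypes did not overlap for 3 of the 9, Pdgfra, Sfrp2 and Mgp, against 29.5% of all genes. Thy1 and Sfrp2, whose changes in fat chose the list, are within the 9, so these counts are a description.

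Mgp stood at 10.54 and 10.97 in Mgl2-DTR, against 9.93 and 10.38 in wild-type epididymal fat, a change of 0.61 (SE 0.23; limma adjusted p = 0.710). Pdgfra had 9.74 and 10.00 in Mgl2-DTR and 9.47 and 9.66 in wild-type fat (0.30, SE 0.31; limma adjusted p = 0.888). The Dpp4 levels were 8.99 and 9.40 in Mgl2-DTR and 8.32 and 9.11 in wild-type fat (0.48, SE 0.24; limma adjusted p = 0.729), which overlapped. Cd34 had 10.50 and 10.14 in Mgl2-DTR and 9.71 and 10.35 in wild-type fat (0.29, SE 0.21), which also overlapped.

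The common direction rested on single arrays. Wild-type replicate 1 was the lowest of the 4 epididymal arrays for 8 of the 9 members, whose mean was 9.08 there, against 9.45 in wild-type replicate 2 and 9.59 and 9.48 in the Mgl2-DTR arrays. Without wild-type replicate 1 the members split into 6 higher and 3 lower, and without Mgl2-DTR replicate 1 into 5 higher and 4 lower. Without wild-type replicate 2 the Dpp4 change was 0.88. Mgl2-DTR replicate 2, the array high in epididymal duct genes, was the highest of the 4 for 3 members, Pdgfra, Dpp4 and Mgp. Without both that array and wild-type replicate 1, the Dpp4 change was -0.13 and the Mgp change 0.16. In that setting 6 of the 9 members were higher and 3 lower. Wild-type replicate 1 was also the array with the highest mean of 7 macrophage genes, 11.10, against 10.31 in wild-type replicate 2 and 9.70 and 9.47 in Mgl2-DTR, and it had the lowest mean of 6 endothelial genes, 8.60, against 8.89 to 9.43 in the other 3. Their part in the members' changes was not tested.

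In inguinal fat the members did not share a direction. Of the 9 changes 7 were below 0 and 2 above, with a median of -0.11 against 0.10 over all genes, of which 70.7% were above 0. None of the 7 tested members passed by limma and 0 had an unadjusted p under 0.05, beside 0.197% of all genes called (0.189% lower and 0.00787% higher). Genotypes did not overlap for 5 of the 9 (Dpp4, Cd34, Thy1, Sfrp2 and Mgp), against 46.9% of all genes. The direction, median and overlap given for the 9 include Thy1 and Sfrp2, whose changes in fat chose the list, so they are a description.

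Sfrp2 and Thy1, the genes for which the list had been noted, had the largest changes. Sfrp2 stood at 7.90 and 7.80 in Mgl2-DTR inguinal fat, against 9.13 and 8.73 in wild-type inguinal fat, a difference of -1.08 (SE 0.23). In epididymal fat it stood at 8.46 and 8.25 in Mgl2-DTR and 7.95 and 8.16 in wild-type fat, a difference of 0.30 (SE 0.23). Both Mgl2-DTR arrays were thus below both wild-type arrays in inguinal fat and above them in epididymal fat. The pattern of higher epididymal and lower inguinal levels without overlap in either depot was met by 0.598% of all tested genes, and opposite changes of either order by 4.45%, a background from which nothing is read, since the difference itself put Sfrp2 in view. A second, dimmer Sfrp2 probe lay at 4.14 to 4.58 in all 12 arrays, under the filter level, and did not show these differences, with 0.09 in inguinal fat and -0.005 in epididymal fat.

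Thy1 stood at 7.28 and 7.26 in Mgl2-DTR inguinal fat, against 8.01 and 8.27 in wild-type inguinal fat, a difference of -0.87 (SE 0.18). In epididymal fat it stood at 7.61 and 7.10 in Mgl2-DTR and 7.09 and 7.16 in wild-type fat, a difference of 0.23 (SE 0.18) with overlapping groups. Without Mgl2-DTR replicate 1 the epididymal value was -0.03. The inguinal difference was therefore seen in both arrays of each genotype, while the higher epididymal mean came from 1 array. Seen by depot, both genes were higher in inguinal than in epididymal fat of wild-type mice, by 1.01 for Thy1 and 0.87 for Sfrp2, and were not so in Mgl2-DTR mice, at -0.09 and -0.51. The inguinal change minus the epididymal change was -1.10 for Thy1 (SE 0.25) and -1.38 for Sfrp2 (SE 0.32). These values come from the same 8 arrays and are given as a description.

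The other members gave smaller values of that difference between depots, all without a test. Dpp4 was at -0.77 (SE 0.34), Cd34 at -0.61 (SE 0.29) and Pdgfra at -0.41 (SE 0.44), while Mgp, Dcn and Pi16 lay between -0.20 and -0.11 and Pdgfrb at 0.20. In inguinal fat itself Cd34 had 10.29 and 10.20 in Mgl2-DTR and 10.51 and 10.63 in wild-type fat (-0.33, SE 0.21; limma adjusted p = 0.778). Dpp4 had 8.68 and 8.78 in Mgl2-DTR and 8.91 and 9.13 in wild-type fat (-0.29, SE 0.24; limma adjusted p = 0.823). The Mgp change had the other sign, with 9.93 and 9.83 in Mgl2-DTR and 9.78 and 9.17 in wild-type fat (0.41, SE 0.23; limma adjusted p = 0.768). Without both inguinal arrays high in muscle genes it was 0.05.

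Pdgfra, Pi16 and Dcn gave values near 0 in inguinal fat. Their changes were -0.11 (SE 0.31), -0.02 (SE 0.25) and -0.06 (SE 0.24), with 95% intervals of -0.81 to 0.59, -0.58 to 0.55 and -0.60 to 0.48. Pdgfrb was at 0.26 (SE 0.30; limma adjusted p = 0.874). Without both arrays high in muscle genes the members were 4 higher and 5 lower, and the Pi16 change was 0.43. Leaving out Mgl2-DTR replicate 1, high in muscle genes, turned the members to 5 higher and 4 lower, and in that setting Sfrp2 and Thy1 kept their sign, as they did in each of the 12 settings that left out 1 array (-1.28 to -0.88 for Sfrp2 and -1.0 to -0.74 for Thy1).

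Thy1 is also a gene of T cells, and its change was therefore set beside T cell markers. Of 8 listed markers 6 were measured, and Cd3d and Cd8a lay under 5.71 in all 4 inguinal arrays. The mean of the 6 was 5.86 and 5.63 in Mgl2-DTR, against 6.05 and 5.68 in wild-type inguinal fat, and the groups overlapped. The 4 markers that could be tested were all below 0 in Mgl2-DTR inguinal fat, with a median of -0.24 and 0 called by limma or at an unadjusted p under 0.05. Cd3g had 5.76 and 5.62 in Mgl2-DTR, against 6.35 and 5.96 in wild-type inguinal fat (-0.46, SE 0.28; limma adjusted p = 0.775), and did not overlap. Cd4 changed by -0.42 (SE 0.25), Cd2 by -0.07 (SE 0.17) and Cd3e by -0.003 (SE 0.18), each with overlapping groups. The mean of 7 macrophage genes was 8.29 and 8.89 in Mgl2-DTR, against 10.21 and 10.31 in wild-type inguinal fat, and 3 of the 7 were called lower. Mural cell genes averaged 9.43 and 9.11 in Mgl2-DTR, against 8.83 and 8.83 in wild-type inguinal fat, and all 7 were above 0, with 0 called by limma and 1 at an unadjusted p under 0.05. Endothelial genes averaged 9.84 and 9.30 in Mgl2-DTR, against 9.19 and 9.0 in wild-type inguinal fat, and all 6 were above 0, with 0 called by limma and 2 at an unadjusted p under 0.05. Over all genes in inguinal fat, 70.7% were above 0 and 6.93% had an unadjusted p under 0.05 by limma. The part of T cell, macrophage, mural and endothelial RNA in the members' values was not tested.

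**Figure D3:**
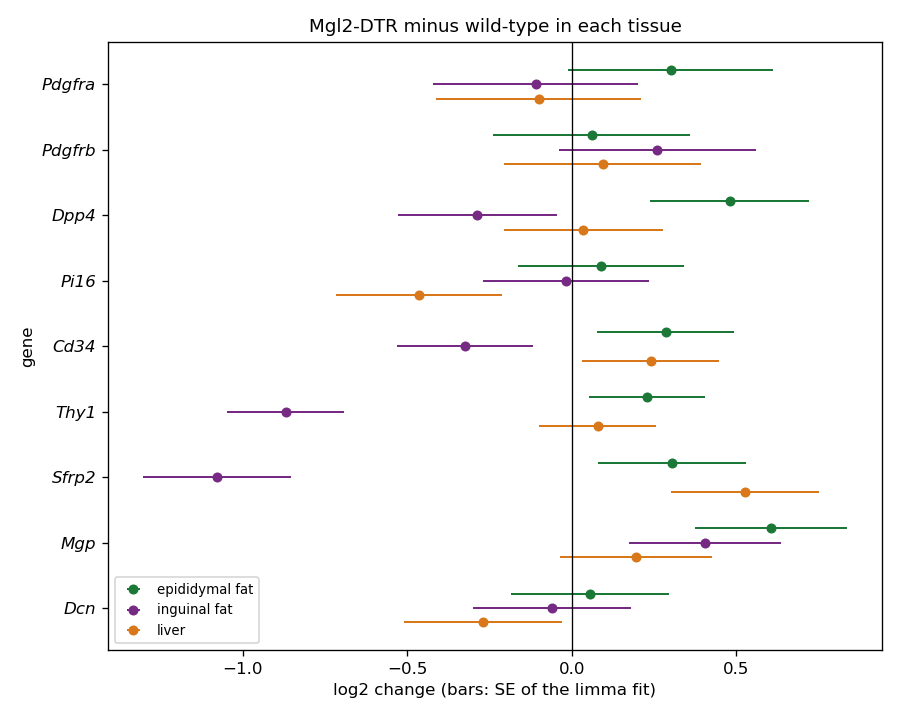
Mgl2-DTR minus wild-type log2 change of each progenitor gene in epididymal fat (green), inguinal fat (purple) and liver (orange), with bars for the SE of the limma fit over 12 arrays. Thy1 and Sfrp2 lie at -0.87 and -1.08 in inguinal fat, and the other inguinal changes lie between -0.33 and 0.41.

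**Figure D4:**
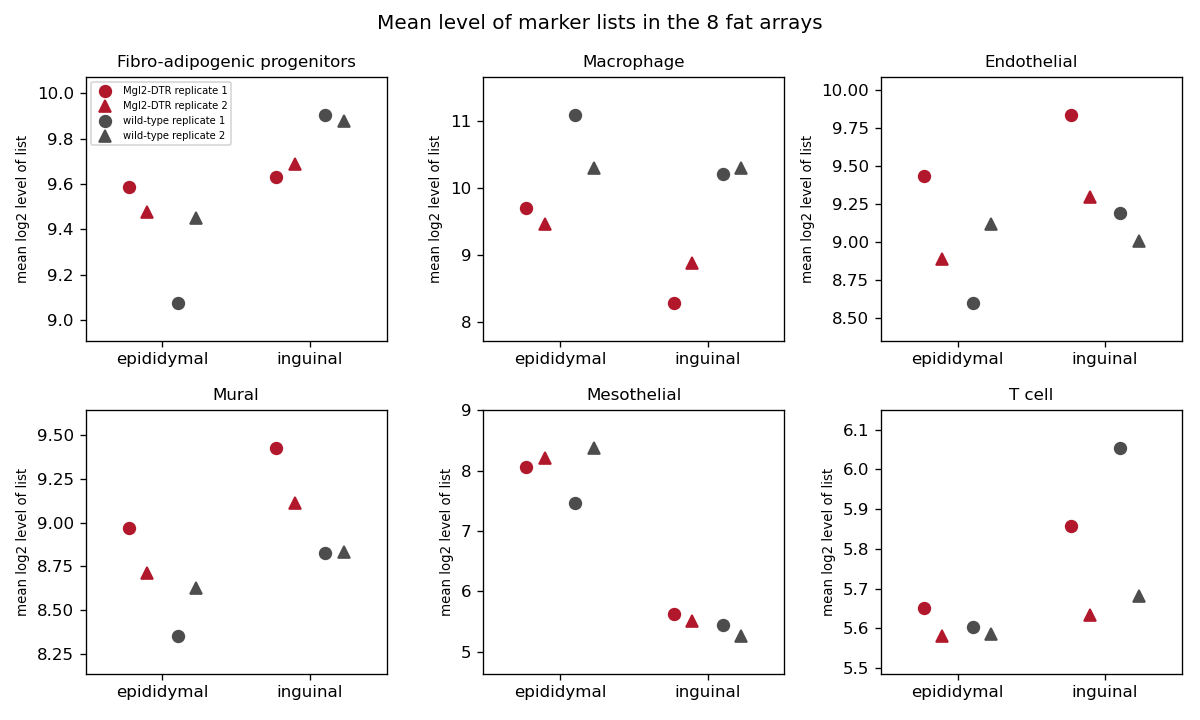
Mean log2 level of the 9 progenitor genes and of 5 marker lists in the 8 fat arrays, with circles for replicate 1 and triangles for replicate 2. Wild-type epididymal replicate 1 has the lowest progenitor mean (9.08) and the highest macrophage mean (11.10).

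In liver none of the 9 members passed by limma between genotypes, with adjusted p-values of 0.885 or above, 1 unadjusted p under 0.05 and 0.0708% of all genes called (0.0315% higher and 0.0393% lower). Sfrp2 had that p-value, with 6.62 and 6.14 in Mgl2-DTR, against 5.61 and 6.10 in wild-type liver (0.53, SE 0.23; limma adjusted p = 0.885), 1 array of them under the filter level. Its dimmer probe, under that level in every array, gave -0.21. Pi16 lay under or close to that level, with 5.55 and 5.69 in Mgl2-DTR and 5.98 and 6.19 in wild-type liver (-0.46, SE 0.25; limma adjusted p = 0.994). Groups did not overlap for 4 of the 9 (Pi16, Cd34, Sfrp2 and Mgp), against 34.4% of all genes. Pdgfra differed more between the Mgl2-DTR liver arrays, 7.35 and 6.18, than between genotypes (-0.10, SE 0.31). The 7 markers of hepatic stellate cells, the liver's own Pdgf receptor-bearing stroma, averaged 7.67 and 6.88 in the same arrays, against 7.33 and 7.47 in wild-type liver, and their part in the Pdgfra levels was not tested.

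Related genes were followed through 5 further lists. Of 7 tested PDGF ligands and receptor relatives, of 9 other small leucine-rich proteoglycans, the family of Dcn, of 10 genes of Frizzled-related proteins and stromal Wnt signals, of 23 other stromal progenitor genes and of 11 genes of adipocyte differentiation, 0 were called by limma between genotypes in any tissue. Those with an unadjusted p under 0.05 in inguinal fat numbered 1, 0, 4, 2 and 0 in that order of lists, and in epididymal fat 1, 0, 1, 1 and 0. In liver the numbers were 0, 0, 1, 3 and 2. Over all genes the share at that level was 6.98% in epididymal fat, 6.93% in inguinal fat and 5.53% in liver. The smallest p in the Wnt list was that of Sfrp5, a relative of Sfrp2 made by adipocytes, in both depots. It had 8.23 and 8.0 in Mgl2-DTR, against 6.86 and 6.86 in wild-type inguinal fat (1.26, SE 0.28; limma adjusted p = 0.236), and changed by 0.66 (SE 0.28; limma adjusted p = 0.710) in epididymal fat. The other 3 genes of the list at an unadjusted p under 0.05 in inguinal fat, named after their values were seen, were lower in Mgl2-DTR: Dkk2 at -0.83 (SE 0.28), the relative Sfrp4 at -0.81 (SE 0.30) and Wnt2 at -0.46 (SE 0.16), with limma adjusted p-values of 0.641, 0.678 and 0.649. Wnt2 lay under the filter level in both Mgl2-DTR inguinal arrays and Dkk2 in replicate 2 (5.18), so both sizes are limited by the floor. In the PDGF list the smallest p was that of Csf1r, a receptor of the same kinase class carried by macrophages. It had 7.86 and 8.60 in Mgl2-DTR against 10.32 and 10.34 in wild-type inguinal fat (-2.10, SE 0.35; limma adjusted p = 0.0817).

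Other genes of those lists had a value by the same rule but did not pass. In the proteoglycan list Aspn, asporin, was at -0.82 in inguinal fat (SE 0.37; limma adjusted p = 0.722), with 8.41 and 7.58 in Mgl2-DTR and 8.70 and 8.94 in wild-type fat. All 9 proteoglycans were above 0 in epididymal fat with a median of 0.20, but without wild-type replicate 1 the direction turned, with 3 higher, 6 lower and a median of -0.21. The list averaged 9.67 and 9.44 in Mgl2-DTR, against 9.05 and 9.66 in wild-type epididymal fat. Prelp led by p (0.37, SE 0.27; limma adjusted p = 0.818) with 12.72 and 12.72 in Mgl2-DTR, against 12.06 and 12.63 in wild-type fat. Sema3c, a secreted semaphorin, was at 0.76 in epididymal fat (SE 0.19; limma adjusted p = 0.607), with 10.00 and 9.84 in Mgl2-DTR and 8.87 and 9.45 in wild-type fat. The adipocyte genes gave medians of 0.26 in inguinal and 0.08 in epididymal fat, against 0.10 and 0.005 over all genes. Icam1, an adhesion molecule of committed preadipocytes, was at 0.63 in inguinal fat (SE 0.20; limma adjusted p = 0.598), and Cd248, endosialin, a surface protein of stromal cells and pericytes named after its value was seen, was at -0.55 (SE 0.18; limma adjusted p = 0.598). In liver the smallest p-values were those of Wnt5a at 0.87 (SE 0.22; limma adjusted p = 0.465) and Fmo2 at 1.03 (SE 0.26; limma adjusted p = 0.521). Wnt5a lay at 5.56 and 5.29 in Mgl2-DTR and at 4.78 and 4.32 in wild-type liver. All of these levels are under 5.71, so its change may be one between background readings.

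Between depots several related genes passed beside Pi16. In wild-type mice 3 of 10 Wnt-related genes were higher in inguinal fat, among them Dkk2, an extracellular Wnt modulator (1.46, SE 0.28; limma adjusted p = 0.0382), and Wnt2 (0.89, SE 0.16; limma adjusted p = 0.0319), both of which lay under 5.71 in epididymal fat. The third was Ccn5, a secreted protein of mesenchymal cells (0.85, SE 0.12; limma adjusted p = 0.00988), which was also the 1 of the 10 called in Mgl2-DTR mice (0.72, SE 0.12; limma adjusted p = 0.0205). Fap, a surface protease of fibroblasts, was higher in inguinal fat of wild-type mice (1.44, SE 0.28; limma adjusted p = 0.0413). It stood at 8.26 and 8.25 there, against 6.79 and 6.83 in wild-type epididymal fat. The Mgl2-DTR differences of Fap, Wnt2 and Dkk2 had the same sign, at 1.17, 0.70 and 0.58. They did not pass, with limma adjusted p-values of 0.0791, 0.0713 and 0.32. Fmod, fibromodulin, was lower in inguinal fat in both genotypes, with -1.95 in Mgl2-DTR (SE 0.37; limma adjusted p = 0.0339) and -2.06 in wild-type mice (SE 0.37; limma adjusted p = 0.0296). Sema3c was lower in inguinal fat of Mgl2-DTR mice, with 8.94 and 8.66 against 10.00 and 9.84 in epididymal fat (-1.12, SE 0.19; limma adjusted p = 0.0201).

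Against liver, the related lists leaned as the members did. In wild-type mice 8 of 9 proteoglycans, 18 of 23 stromal progenitor genes, 8 of 11 adipocyte genes, 6 of 10 Wnt-related genes and 4 of 7 PDGF genes were called lower in liver, against 34% of all genes. Lep, leptin (-7.60, SE 0.16), and Fabp4, the fatty acid carrier of adipocytes (-6.61, SE 0.16), had the largest changes, and that of Lep is limited by the floor, since it lay under 5.71 in all 4 liver arrays. Among stromal genes Gsn, gelsolin, changed by -5.36 (SE 0.15). Aspn lay at 3.29 to 3.46 in all 4 liver arrays, under the filter level, so its change of -5.04 (SE 0.32) is limited by the floor as well. Called higher were Dact2, Wif1, Klf15 and Cebpb, by 0.81, 0.41, 1.83 and 0.79.

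For 3 members the genes with the most similar course over the 12 arrays were found by the root mean square difference of levels after each gene's mean was removed. Nearest to Pdgfra were Col4a1, a basement membrane collagen (0.24), Tnxb, tenascin-X (0.24), and Abi3bp (0.26), against a median of 1.54 over all genes. The genes nearest to Thy1 were Thbs3, a thrombospondin (0.19), Dnm1, a dynamin (0.23), and Tmeff1 (0.24), against a median of 0.92. For Sfrp2 they were Akr1b10 (0.30), Dnm1 (0.30) and Lrrc17 (0.30), against a median of 1.07. Dnm1 stood at 7.61 and 7.47 in Mgl2-DTR, against 8.09 and 8.01 in wild-type inguinal fat, and at 7.43 and 7.39 in Mgl2-DTR and 7.32 and 7.44 in wild-type epididymal fat. It was named because it was near, so its levels are a description.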

How the data were processed

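RNA of 3 tissues from Mgl2-DTR and wild-type mice was labelled with the GeneChip WT PLUS kit for Affymetrix arrays, per the labels' protocols. The authors deposited log2 levels of 41345 probes in each sample. The submitters' processing notes name limma. How background, normalization and probe summaries were handled is not given in the sources here. Of the probes 23521 carry 1 gene symbol in the platform annotation, 1814 several and 16010 none that is listed, and the brightest single-symbol probe stood for a gene (1082 genes had over 1). A log2 level is compared across arrays for 1 probe only.

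Genes above 5.71 in at least 1 tissue mean entered a linear model of group means over the 12 arrays (limma 3.58.1, R 4.3.3; 6 residual degrees of freedom, 3.35 prior). P-values are two-sided and adjusted by Benjamini and Hochberg over 12710 genes, with calls at an adjusted p under 0.05. Only 2 arrays per group limit the precision. The fit was run on simulated data with independent noise. That is a check of the code and cannot vouch for calls in arrays that held RNA of other tissue. The members and lists were chosen with earlier results of these data known. Named were all members, of each list per comparison up to 2 called genes per direction with the largest change or the gene with the smallest p, and the 3 nearest genes of 3 members. Thy1 and Sfrp2 got no test in any comparison that holds fat arrays, since the rule read these. The comparisons in fat share arrays with those between depots. Alternatives were other filters, probes, normalization, moderation, weights, blocks, thresholds and sets of arrays, and 4 were added after seeing the data. Replicate numbers are shared by the groups, but the labels do not say that a number marks a mouse or batch.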

Additional observations from a re-analysis of the deposited data

Results flagged for a closer look

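Sfrp2 and Cd34 moved in opposite directions in different tissues, with both Mgl2-DTR arrays on 1 side of both wild-type arrays in each. For Sfrp2 the inguinal change minus the epididymal change was -1.38, from -1.08 in inguinal and 0.30 in epididymal fat, and the liver change minus the inguinal change was 1.61, with 0.53 in liver. Through the dimmer Sfrp2 probe, under the filter level in all 12 arrays, the liver change was -0.21. For Cd34 the liver change minus the inguinal change was 0.56, from 0.24 in liver and -0.33 in inguinal fat. Neither Cd34 change passed by limma, and its liver levels of 5.74 to 6.09 lay close to the filter level. These differences between tissues were not tested. With 2 arrays per group, groups that do not overlap are common, and changes of opposite sign without overlap in both fat depots were seen in 4.45% of all tested genes, and in inguinal fat and liver in 8.82%. The difference of Sfrp2 between depots is the one by which the list was chosen, so it is a description.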

How the results depend on the processing

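The number of tested members called between genotypes was 0 in inguinal fat and in liver under each alternative run. In epididymal fat it was 0 except in the settings that left out 1 array, where it ranged from 0 to 1 (Dpp4 without wild-type replicate 2). Between depots it was 1 in Mgl2-DTR mice, but 2 at an adjusted p under 0.10. It was also 1 in wild-type mice, though whether Cd34 or Pdgfra passed beside Pi16 depended on single arrays when 1 was left out. Against liver it was 7 under each alternative run, and the untested change of Sfrp2 was 0.21 through its dimmer probe, which lay at 4.14 to 4.58 in all 12 arrays, under the filter level. Through that probe the inguinal minus epididymal change of Sfrp2 was 0.10. It was -1.63 without both inguinal arrays high in muscle genes and ranged from -1.58 to -1.18 when 1 array was left out. For Thy1 the range was -1.36 to -0.84, and the value without both epididymal arrays that stood apart was -1.32. The number of all genes called in epididymal fat ranged from 0 to 763 when 1 array was left out, in inguinal fat from 6 to 38 and in liver from 3 to 14. It was 0 in inguinal fat without both arrays high in muscle genes, against 25. With the replicate block the number of members called between genotypes was 0 in each tissue, and 1, 1 and 7 in the comparisons of Mgl2-DTR depots, wild-type depots and liver against fat, and the differences of Thy1 and Sfrp2 stayed at -1.10 and -1.38. The replicate numbers were not taken to pair the arrays: deviations of same-numbered arrays of both genotypes correlated at 0.05, -0.12 and 0.09 across genes in epididymal fat, inguinal fat and liver, and a block crossed in inguinal fat, added after seeing the data like the sets without 2 arrays, gave member counts of 0 in each tissue. The compared tissues alone gave no separate fit for liver against fat, which uses all 3. Mgl2 lost its call in epididymal fat with that tissue alone (adjusted p = 0.214), without Mgl2-DTR replicate 2 (0.067) or without both arrays that stood apart (0.0559), and in inguinal fat with that tissue alone (0.0694) or without both arrays high in muscle genes (0.13). Liver levels of Thy1, Pi16 and Sfrp2 under 5.71 on some arrays, and of Cd34 close to it, limit their changes.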
